A study of Mus musculus with 10 samples.

Results

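Calmodulin, the calmodulin-dependent kinase CaMKII and the phosphatase calcineurin were followed through 9 genes in adult mouse left atrium after inducible deletion of Tbx5, which encodes a cardiac T-box factor. The genes were chosen by name: Calm2 and Calm3 for calmodulin, Camk2a, Camk2b, Camk2d and Camk2g for the 4 CaMKII isoforms, Ppp3ca and Ppp3cb for catalytic subunits of calcineurin, and Rcan1 for a regulator of calcineurin. They are 9 of the 23337 genes in the deposited table, and all 9 passed the filter on low counts, which left 13191 genes to test.

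Calmodulin is a small protein that binds calcium and then docks onto its targets. CaMKII is a kinase of many subunits that is switched on by calcium-loaded calmodulin and acts in heart muscle on channels and proteins of calcium handling. Calcineurin, a phosphatase switched on by the same sensor, removes phosphate from NFAT transcription factors so that they enter the nucleus, and Rcan1 binds and inhibits calcineurin and is itself a classical target gene of NFAT.

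RNA came from the left atrium of 6 mice labelled Tbx5 knockout and 4 labelled control. Knockouts had lost exon 3 of Tbx5 through a Cre that tamoxifen activates and that the Rosa26 locus (R26) drives in all cell types, so the deletion was not limited to heart muscle cells. Their tamoxifen dose was 0.167 mg daily over 3 days, 1 week before the atria were collected. Controls were labelled Tbx5 +/+, and the labels do not say whether they carried the Cre or received tamoxifen, so effects of either cannot be told apart from those of the deletion. All animals were of mixed C57B6 and 129 background, aged 8 to 10 weeks in the sample labels and 6 to 8 weeks in the extraction protocol, and 3 knockouts and 2 controls were female. Levels below are the deposited normalized counts, which are reads per gene divided by 1 size factor per library, and ± is the SD.

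Libraries held 5789632 to 7355782 assigned reads in knockouts and 5701670 to 7697556 in controls. Tbx5 itself was higher in the libraries labelled knockout, at 1952 ± 336 against 939 ± 125 normalized counts in controls. The difference in mean log2 level was 1.05, and an exact two-sided permutation test gave p = 0.00476, the smallest that the 210 splits allow. Exon 3 (chromosome 5, 119838696 to 119838790, GRCm38) is 2.41% of the principal transcript, so this count does not check the deletion, and each direction below rests on the labels. Heart muscle markers were abundant in every library, with the sum of 6 markers at 271515 to 364190 in knockouts and 380463 to 426939 in controls. Summed levels of 4 marker lists were higher in every knockout than in any control: macrophages, 4807 to 7687 against 2175 to 2924, fibroblasts, 19776 to 25065 against 14326 to 16238, endothelium, 6858 to 7541 against 5841 to 6652, and smooth muscle and pericytes, 2713 to 3584 against 1952 to 2368. Single markers did not all move with their sums (adjusted p under 0.05, edgeR). Of 6 heart muscle markers 2 were higher and 3 lower, and of 5 each for fibroblasts and endothelium 3 were higher and 1 lower. All 4 tested macrophage markers were higher, as were 3 of 5 for smooth muscle and pericytes. Over all tested genes 20.8% were higher and 21.8% lower. The part of these shifts in the results below was not tested. In whole tissue, fewer cells of a type and less RNA per cell cannot be told apart. Knockout M1 stood apart from the other knockouts in 5.83% of tested genes by Dixon's criterion, against 0.326% to 1.61% for each of the other 9 libraries.

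Rcan1 is the member that rose most, and its reads are summed over 2 starts that RefSeq lists on the minus strand of chromosome 16, one upstream and one inside the gene. Both are shown, with the windows of Calm3, which also rose, and of Camk2d, which fell. Each runs from 250 bases before to 50 bases after the start (RefSeq, GRCm38.p6). Capitals mark matches on either strand to AGGTGT (the core of a T-box site), GGAAAA (an NFAT core) and TGACGTCA (a cyclic AMP response element).
Rcan1 upstream start, chr16:92466120-92466419, minus strand: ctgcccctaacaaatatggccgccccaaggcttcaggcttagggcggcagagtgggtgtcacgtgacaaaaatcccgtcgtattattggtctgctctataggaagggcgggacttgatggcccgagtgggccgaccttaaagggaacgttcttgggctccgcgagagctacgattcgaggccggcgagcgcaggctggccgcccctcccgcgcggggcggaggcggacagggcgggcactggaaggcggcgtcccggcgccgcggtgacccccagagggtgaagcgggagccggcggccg
Rcan1 internal start, chr16:92400029-92400328, minus strand: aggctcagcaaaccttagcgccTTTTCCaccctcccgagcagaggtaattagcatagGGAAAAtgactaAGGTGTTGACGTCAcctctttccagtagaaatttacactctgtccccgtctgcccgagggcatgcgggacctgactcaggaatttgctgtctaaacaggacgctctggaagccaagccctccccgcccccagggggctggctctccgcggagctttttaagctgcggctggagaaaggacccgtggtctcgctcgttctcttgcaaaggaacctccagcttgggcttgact
Calm3, chr7:16923983-16924282, minus strand: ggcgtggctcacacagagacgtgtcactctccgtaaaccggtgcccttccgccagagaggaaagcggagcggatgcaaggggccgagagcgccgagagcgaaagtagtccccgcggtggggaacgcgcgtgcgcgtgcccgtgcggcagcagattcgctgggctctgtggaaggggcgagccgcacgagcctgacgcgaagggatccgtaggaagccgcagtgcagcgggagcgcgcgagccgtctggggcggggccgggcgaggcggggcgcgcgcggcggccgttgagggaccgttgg
Camk2d, chr3:126596701-126597000, plus strand: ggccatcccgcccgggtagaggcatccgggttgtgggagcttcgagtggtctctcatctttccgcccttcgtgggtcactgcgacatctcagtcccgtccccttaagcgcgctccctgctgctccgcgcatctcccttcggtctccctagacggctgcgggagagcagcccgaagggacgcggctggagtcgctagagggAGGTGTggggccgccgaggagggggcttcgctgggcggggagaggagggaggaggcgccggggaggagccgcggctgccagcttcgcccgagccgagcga

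The internal Rcan1 window held 1 AGGTGT at -181, 2 GGAAAA at -228 and -193, and 1 TGACGTCA at -175, directly after the T-box letters and not overlapping them. The upstream Rcan1 window and the Calm3 window held none of the 3 motifs. In Camk2d, AGGTGT lay at -50. Among the other members, the Camk2b window held AGGTGT at 0, and the Ppp3cb window held AGGTGT at -235 and GGAAAA at -224 and -187. Positions count from the start, and for matches on the opposite strand they give the leftmost base as printed. Over all 32851 RefSeq windows of this length, 13.7% held AGGTGT, 23.4% GGAAAA and 1.79% TGACGTCA. A match is a description of the letters and does not show binding, and the deposited counts do not separate the transcripts of the 2 Rcan1 starts.

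The comparison of knockout with control left atrium asked which genes change in the adult heart when Tbx5 is deleted. Rcan1 and Calm3 rose in knockouts, Camk2a and Camk2d fell, and Calm2, Camk2b, Camk2g, Ppp3ca and Ppp3cb did not pass the test. These are 4 of 9 genes at a Benjamini-Hochberg adjusted p under 0.05 in edgeR's quasi-likelihood test, 2 in each direction. Of all 13191 tested genes 42.6% passed, 20.8% higher and 21.8% lower in knockouts, so the share among the members is near the background. The median log2 fold change (knockout over control) was -0.07 over the 9 members and -0.00 over all tested genes. In 2 members every knockout lay above every control, and in 1 every knockout lay below, while 16.3% and 15% of all tested genes were separated in these directions, 31.3% in all. Without knockout M1, 6 members passed, with Calm2 and Ppp3cb added, against 46.3% of tested genes. With offsets for exon length and GC content, 4 passed, Calm2 in place of Camk2d, against 42.8%.

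**Figure D1:**
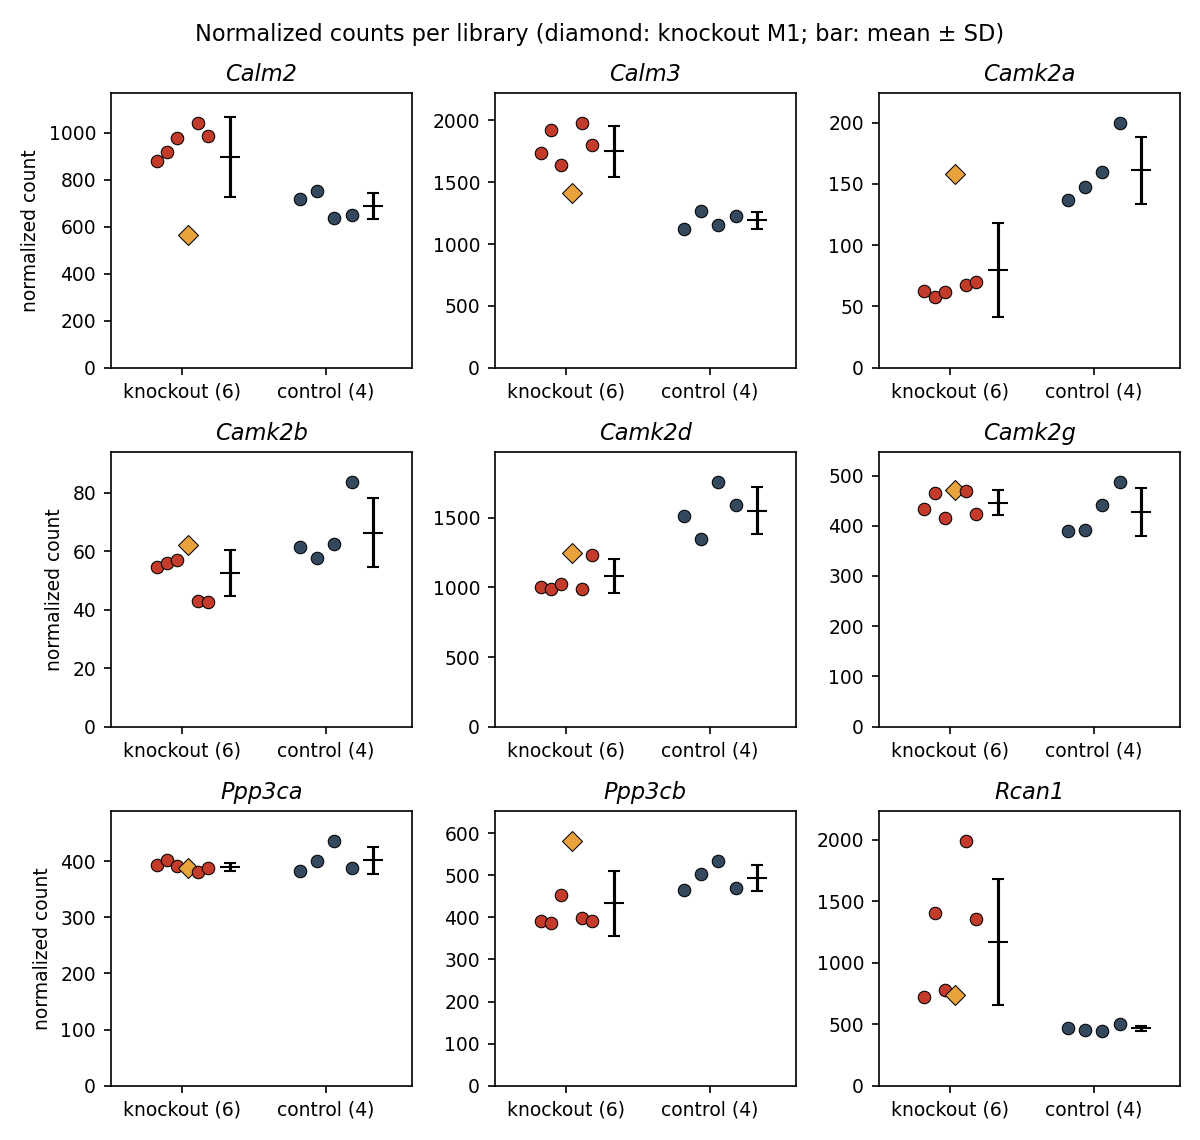
Normalized counts of the 9 genes in each library, with a panel for each gene. Points are libraries, knockout left and control right, bars are means with SD, and knockout M1 is marked; in Rcan1, Calm3 and Camk2d the 2 groups do not overlap.

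Calmodulin genes were higher in knockouts where they passed the test. Calm3 (chromosome 7, 16915379 to 16924114) encodes the same calmodulin protein as Calm2 (chromosome 17, 87433412 to 87446935). Calm3 had 1733, 1926, 1637, 1412, 1980 and 1805 normalized counts in knockouts F1, F2, F3, M1, M2 and M3, against 1119, 1267, 1154 and 1226 in controls M1, M2, F1 and F2. All 6 knockouts lay above all 4 controls. The log2 fold change was 0.53 ± 0.10 (SE; adjusted p = 0.000869, edgeR), a 1.44-fold rise. With length and GC offsets the log2 fold change of Calm3 was smaller, at 0.34 ± 0.10 (adjusted p = 0.014, edgeR).

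Calm2 had 883, 920, 979, 566, 1043 and 988 normalized counts in knockouts, in the same order, against 717, 754, 636 and 651 in controls. In 5 of 6 knockouts Calm2 lay above every control, and knockout M1 lay below every control. Its log2 fold change of 0.36 ± 0.14 (95% interval 0.05 to 0.66) did not pass over all genes (adjusted p = 0.058, edgeR), while the authors' deposited table gives an adjusted p of 0.037. Without knockout M1 it was 0.47 ± 0.08 (adjusted p = 0.000484, edgeR).

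Per kilobase of annotated exon, the summed level of Calm2 and Calm3 was 1333 ± 193 in knockouts and 962 ± 53.6 in controls (SD, n = 6 and 4). Calm3 made up 54.4% ± 3.36 of this sum in knockouts and 51.2% ± 2.09 in controls, and the ranges, 50.3% to 60.1% and 48.6% to 53.3%, overlapped. Both genes have similar coding sequences and how reads matching more than 1 gene were handled is not given in the sources used here, so the division of reads between them is uncertain.

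CaMKII isoforms were lower or without a call in knockouts. Camk2d (chromosome 3, 126596302 to 126846326) encodes CaMKII delta, the main isoform of heart muscle. It had 1005, 991, 1022, 1247, 988 and 1234 normalized counts in knockouts F1, F2, F3, M1, M2 and M3, against 1510, 1346, 1758 and 1595 in controls M1, M2, F1 and F2. All 6 knockouts lay below all 4 controls, and the log2 fold change was -0.55 ± 0.11 (adjusted p = 0.000957, edgeR), 1.46-fold lower.

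The fall of Camk2d was not kept with offsets for annotated exon length and GC content. Its annotated exons span 22493 bp, and the 1222 tested genes with at least 10 kb of exon had a median log2 fold change of -0.28, against 0.13 for the 1446 genes under 2 kb. Fitted with length and GC offsets for each library, the effect on Camk2d was 0.02 ± 0.08 (adjusted p = 0.873, edgeR). The length used is the union over all 28 annotated Camk2d transcripts, and the GC value is that of the longest one. Which of them are expressed here was not tested, so the offsets may not match those transcripts. Such offsets also remove any real change shared by genes of a given length, and the cause of the shift with length was not tested.

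**Figure D2:**
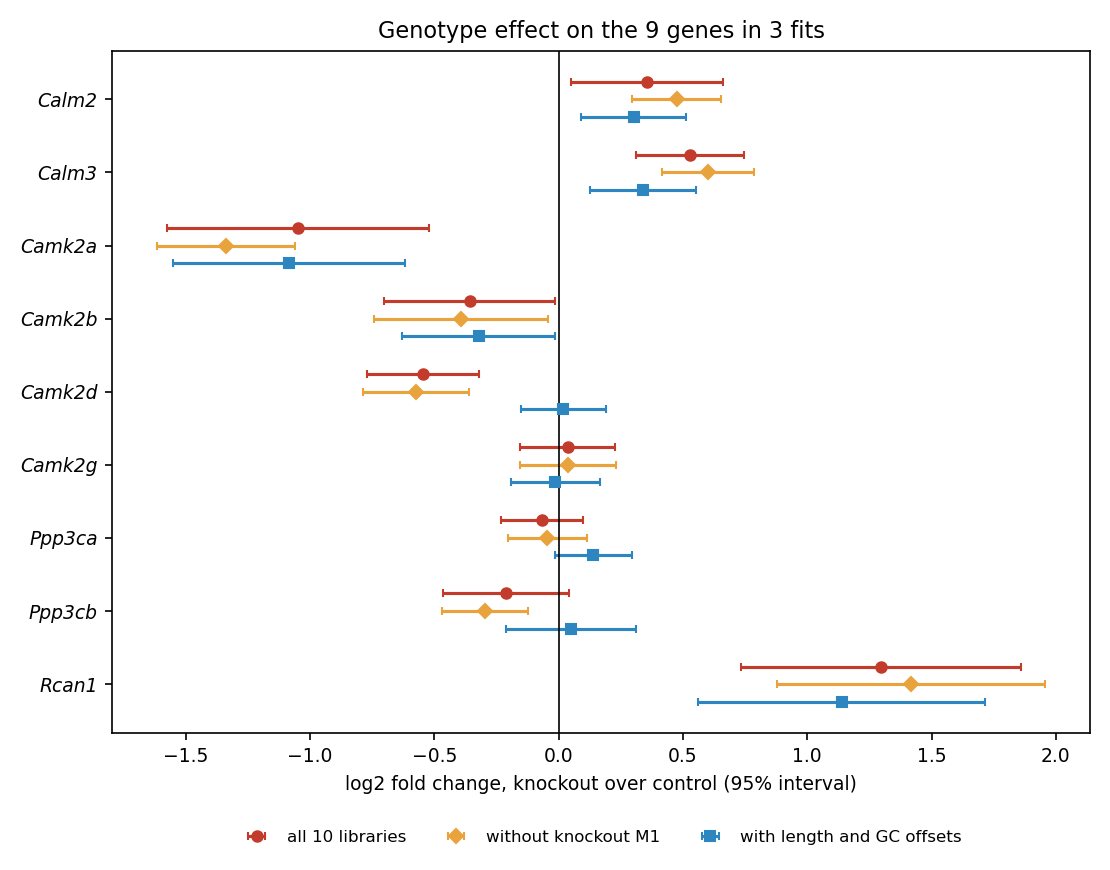
Log2 fold change, knockout over control, of each member with its 95% interval, from all 10 libraries, without knockout M1, and with length and GC offsets. The interval of Camk2d lies below 0 in the first 2 fits and spans 0 with the offsets, while those of Calm2, Calm3 and Rcan1 lie above 0 and those of Camk2a and Camk2b below 0 in all 3; the intervals are for 1 gene and are not adjusted over genes.

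Camk2a (chromosome 18, 60925618 to 60988152) encodes CaMKII alpha, best known from the brain. It had 62.9, 57.7, 61.7, 158, 67.8 and 69.8 normalized counts in knockouts, in the same library order, against 137, 147, 160 and 200 in controls. In 5 of 6 knockouts Camk2a lay below every control, and knockout M1 lay within the control range. The log2 fold change was -1.05 ± 0.25 (adjusted p = 0.00364, edgeR), 2.07-fold lower, and the fall was kept with length and GC offsets, at -1.08 (adjusted p = 0.00129). Without knockout M1 it was -1.34 ± 0.13 (adjusted p = 6.62e-06).

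Defining neuron markers were near 0. Of the 7 neuron markers listed, Snap25, Syt1 and Th were under 3 counts in every library. The sum over the 7 was 45.6 to 71.6 normalized counts in knockouts and 23.1 to 59.3 in controls, and the sum over 4 glial markers was 45.1 to 64.2 in knockouts and 49.2 to 82.1 in controls. In both lists the knockout and control ranges overlapped.

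Camk2b (chromosome 11, 5969644 to 6066362), which encodes the beta isoform, had 54.4, 55.8, 56.9, 62.2, 43.1 and 42.5 normalized counts in knockouts and 61.5, 57.6, 62.5 and 83.7 in controls. In 5 of 6 knockouts it lay below every control, and the log2 fold change of -0.36 ± 0.16 did not pass (adjusted p = 0.088, edgeR). Camk2g (chromosome 14, 20734875 to 20794088), which encodes the gamma isoform found in many tissues, had 433, 464, 415, 471, 469 and 423 in knockouts and 389, 391, 442 and 487 in controls. No knockout lay outside the control range, and the log2 fold change was 0.04 ± 0.09 with a 95% interval of -0.15 to 0.23 (adjusted p = 0.774, edgeR).

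Camk2g held a larger share of CaMKII mRNA in knockouts than in controls, on either of 2 scales. Per kilobase of annotated exon, Camk2g made up 52.1% ± 3.63 of the summed CaMKII level in knockouts and 40.6% ± 1.20 in controls (SD, n = 6 and 4), with ranges of 46.9% to 55.9% and 39.4% to 41.6% that did not overlap. Camk2d made up 35.8% ± 2.59 in knockouts and 42.0% ± 2.72 in controls, with ranges of 33.5% to 40.6% and 38.8% to 44.6%. Camk2a made up 7.75% ± 2.82 in knockouts and 13.1% ± 1.22 in controls, and knockout M1 was at 13.5%. Camk2b stayed a small part, 4.30% ± 0.635 in knockouts and 4.40% ± 0.459 in controls. Without length scaling Camk2d was the largest, at 65.1% ± 2.48 in knockouts and 70.3% ± 2.41 in controls, and Camk2g made up 27.0% ± 2.56 in knockouts and 19.4% ± 1.16 in controls. The count of Camk2g was 0.417 ± 0.0517 of that of Camk2d in knockouts and 0.276 ± 0.0260 in controls. These shares are descriptions with no test, and on both scales they carry the length dependence of Camk2d. No share was computed with length and GC offsets, under which the log2 fold change was 0.02 for Camk2d and -0.01 for Camk2g.

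**Figure D3:**
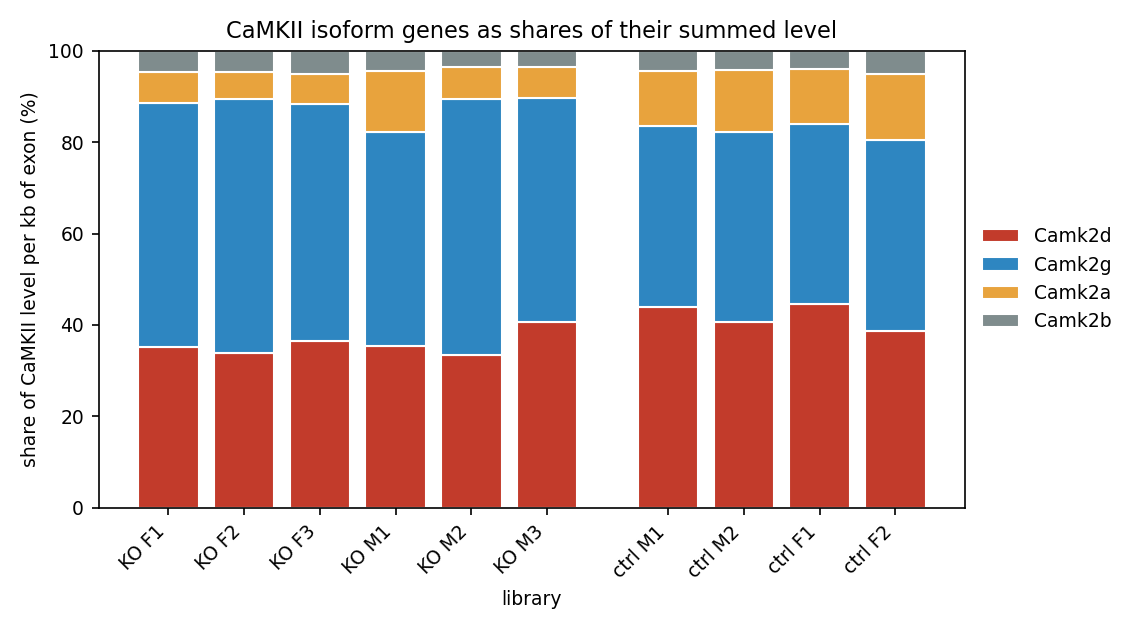
Share of each of the 4 CaMKII genes in their summed level per kilobase of exon, in percent, for each library, knockouts left and controls right. Camk2g takes 46.9% to 55.9% in knockouts and 39.4% to 41.6% in controls, and Camk2a takes 13.5% in knockout M1.

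Calcineurin catalytic subunits did not pass the test. Ppp3ca (chromosome 3, 136670124 to 136937727), the alpha catalytic subunit, had 393, 402, 391, 387, 380 and 387 normalized counts in knockouts and 383, 400, 436 and 387 in controls. Its level was the least variable of the members in knockouts, 390 ± 7.25, against 402 ± 24.1 in controls. The log2 fold change was -0.07 ± 0.08 (95% interval -0.23 to 0.10; adjusted p = 0.518, edgeR).

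Ppp3cb (chromosome 14, 20499364 to 20546573), the beta catalytic subunit, had 390, 387, 453, 582, 398 and 392 normalized counts in knockouts and 466, 504, 533 and 471 in controls. In 5 of 6 knockouts Ppp3cb lay below every control and knockout M1 lay above every control. The log2 fold change was -0.21 ± 0.12 (95% interval -0.47 to 0.04; adjusted p = 0.167, edgeR). Without knockout M1 it was -0.30 ± 0.08 (adjusted p = 0.00875), and with length and GC offsets it was 0.05 (adjusted p = 0.768). Per kilobase of exon, Ppp3ca made up 44.6% ± 4.04 of the sum of both subunits in knockouts and 41.8% ± 0.393 in controls.

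Rcan1 (chromosome 16, 92391953 to 92470867), the calcineurin regulator, rose most. It had 718, 1406, 774, 740, 1989 and 1356 normalized counts in knockouts F1, F2, F3, M1, M2 and M3, against 465, 453, 444 and 498 in controls M1, M2, F1 and F2. All 6 knockouts lay above all controls, and the knockouts fell apart into 3 libraries at 718 to 774 and 3 at 1356 to 1989. The log2 fold change was 1.30 ± 0.26 (adjusted p = 0.00133, edgeR), a 2.46-fold rise, and it was 1.14 with length and GC offsets (adjusted p = 0.0038). The coefficient of variation was 43.9% in knockouts and 5.06% in controls. Both ends of the knockout range held male and female libraries.

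Set against its target without length scaling, the count of Rcan1 was 2.99 ± 1.35 times that of Ppp3ca in knockouts (range 1.83 to 5.23). In controls it was 1.16 ± 0.115 times that of Ppp3ca (range 1.02 to 1.29). Against Ppp3cb the ratio was 2.82 ± 1.44 in knockouts (range 1.27 to 5.0) and 0.947 ± 0.1 in controls (range 0.833 to 1.06). Rcan2, a paralog with the same function, had 2224 ± 184 normalized counts in knockouts and 2554 ± 336 in controls, a log2 fold change of -0.22 ± 0.10 that did not pass (adjusted p = 0.0959, edgeR). The count of Rcan1 was 0.528 ± 0.241 of that of Rcan2 in knockouts and 0.184 ± 0.0248 in controls.

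Per kilobase of annotated exon, the order of the members was led by the calmodulin genes in both groups. In knockouts the levels were 722 ± 85.5 for Calm3, 611 ± 117 for Calm2 and 377 ± 166 for Rcan1. Next came Camk2g at 69.7 ± 3.93, Ppp3cb at 49.2 ± 8.71, Camk2d at 48.1 ± 5.51 and Ppp3ca at 39.1 ± 0.726, with Camk2a at 10.7 ± 5.16 and Camk2b at 5.75 ± 0.873 last. In controls the levels were 492 ± 27.7 for Calm3, 470 ± 38.0 for Calm2, 151 ± 7.63 for Rcan1, 69.0 ± 7.63 for Camk2d, 66.8 ± 7.33 for Camk2g, 56.0 ± 3.57 for Ppp3cb, 40.2 ± 2.41 for Ppp3ca, 21.6 ± 3.68 for Camk2a and 7.27 ± 1.29 for Camk2b. Camk2d thus stood level with Camk2g in controls, within 1 SD, and below it in knockouts, level with Ppp3cb. Calm3 and Calm2 were within 1 SD of each other in controls and within the larger SD in knockouts. Exon lengths are the union over all annotated transcripts, so the level of a gene with many transcripts is understated.

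Within each labelled sex, Calm3 and Rcan1 rose in both. In females 4 members passed, against 28.2% of all tested genes, and in males 2 members passed, against 26.1% of all tested genes (edgeR, fit with sex and group). The log2 fold change of Camk2a was -1.59 ± 0.30 in females (adjusted p = 0.00177) and -0.56 ± 0.29 in males (adjusted p = 0.178), and that of Camk2d was -0.76 ± 0.14 in females (adjusted p = 0.00133) and -0.33 ± 0.14 in males (adjusted p = 0.0974). Calm3 had 0.54 ± 0.15 in females (adjusted p = 0.0193) and 0.52 ± 0.15 in males (adjusted p = 0.0267), and Rcan1 had 1.01 ± 0.35 in females (adjusted p = 0.0486) and 1.55 ± 0.36 in males (adjusted p = 0.00752).

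The difference between the sexes passed for 0 members and for 0.205% of all tested genes by edgeR's test of the interaction. At an unadjusted p under 0.05 it held for 2 members, Camk2a and Camk2d, and for 7.15% of all tested genes. For Camk2a the effect in males minus that in females was 1.03 ± 0.42 (adjusted p = 0.621), and for Camk2d it was 0.44 ± 0.19 (adjusted p = 0.67). Knockout M1 is one of the 3 male knockouts, and without it 4 members passed in males, against 30.3% of all tested genes. The difference for Camk2a was then 0.52 ± 0.24 (adjusted p = 0.543), that for Camk2d 0.38 ± 0.18 (adjusted p = 0.569) and that for Rcan1 0.84 ± 0.37 (adjusted p = 0.538), and at an unadjusted p under 0.05 it held for Camk2a and Rcan1, with 9.07% of all tested genes.

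Beyond the members, 7 lists of the pathway held 61 tested genes, of which 8 rose, 19 fell and 34 did not pass, with a median log2 fold change of -0.08. The background over all tested genes was 20.8% higher and 21.8% lower. Without knockout M1 the counts were 9 higher and 24 lower, against 23.2% of all genes in each direction. With length and GC offsets they were 11 higher and 15 lower, against 20.6% and 22.2% of all genes. With scaling to library size alone they were 13 higher and 17 lower, against 29.9% and 15.3% of all genes.

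**Figure D4:**
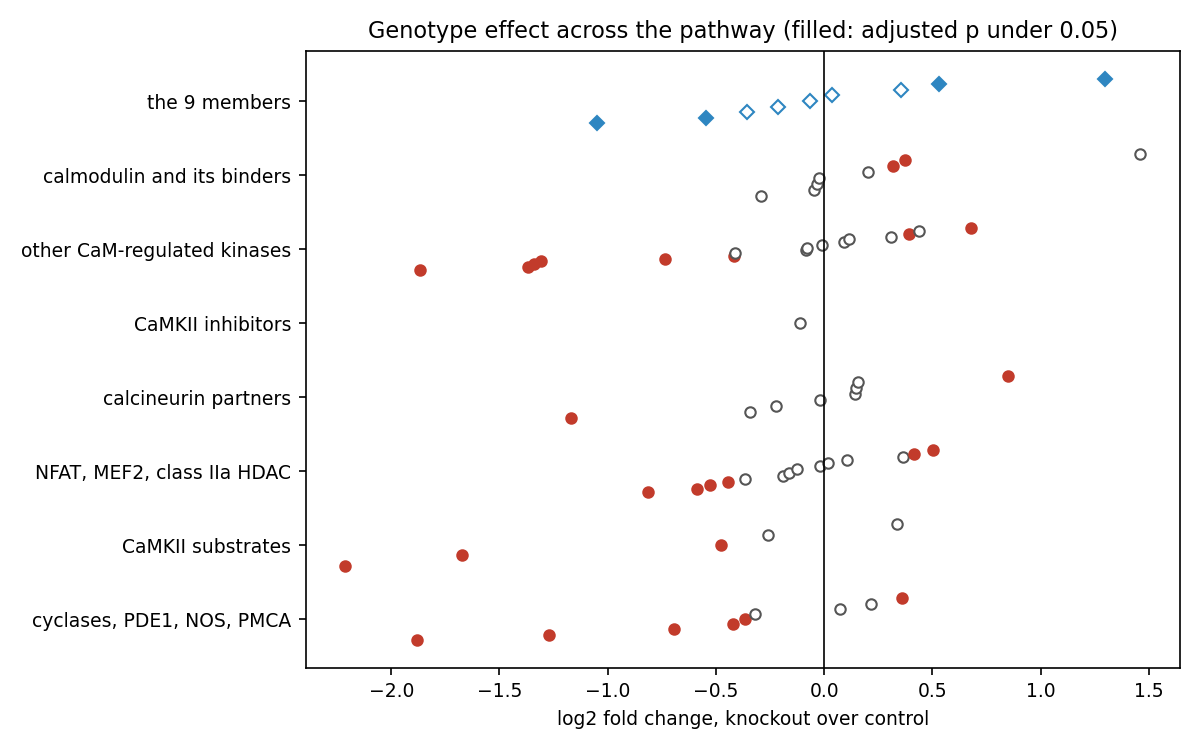
Log2 fold changes, knockout over control, of the tested genes of the 7 pathway lists, with a row for each list and the 9 members as diamonds in the top row. Filled points passed an adjusted p of 0.05 and open points did not; among the other kinases 6 filled points lie below 0 and 2 above it.

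Among other calmodulin-regulated kinases, 6 of 16 tested genes fell, 2 rose and 8 did not pass. Camk1d, a CaM kinase I isoform, had 234 ± 36.1 normalized counts in knockouts and 584 ± 72.7 in controls, a log2 fold change of -1.34 ± 0.12 (adjusted p = 2.68e-06, edgeR). Camk1g, another CaM kinase I isoform, had 34.6 ± 9.40 in knockouts and 84.9 ± 14.8 in controls, 2.48-fold lower. Phkg1 and Phka1, the catalytic and a regulatory subunit of phosphorylase kinase, fell by 1.37 and 0.74 on the log2 scale (adjusted p = 4.92e-06 and 6e-05). In all 4 of these genes every knockout lay below every control, as in 15% of all tested genes. They were named for the smallest adjusted p in their list, which favours such separation. Chosen after their values were seen, the remaining calls were Mylk4 and Mylk3, myosin light chain kinases that fell by 1.87 and 0.42, and Camk1 and Camkk2, a kinase and an upstream kinase of this cascade that rose by 0.68 and 0.39. The rise of Camkk2 was lost without control F1 or F2, at adjusted p values up to 0.0619. Dapk1 and Eef2k, at -0.08 ± 0.09 and 0.11 ± 0.12, did not pass.

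Of the 2 genes for inhibitor proteins of CaMKII only Camk2n1 was abundant enough to test. It had 173 ± 31.1 normalized counts in knockouts and 184 ± 31.8 in controls, a log2 fold change of -0.11 ± 0.15 (adjusted p = 0.576, edgeR). Of 5 CaMKII substrates of heart muscle, 3 fell and none rose. Among them the calcium release channel Ryr2, also in the heart muscle marker list, was 4.63-fold lower (adjusted p = 3.63e-07, edgeR). Its log2 fold change was -2.21, and -1.68 with length and GC offsets (adjusted p = 1.11e-06). Cacnb2, the beta subunit of the L-type calcium channel, fell by 0.47 on the log2 scale (adjusted p = 0.00201), but was at -0.08 with length and GC offsets (adjusted p = 0.479). Pln, phospholamban, at -0.26 ± 0.15, and Cacna1c, the pore subunit of that channel, at 0.34 ± 0.15 (adjusted p = 0.085), did not pass. With the offsets 2 substrates fell and 1 rose, Cacna1c at 0.70 (adjusted p = 0.000161), and Cacna1c also passed without knockout M2 (0.41, adjusted p = 0.0358).

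Among other calmodulin binders, 2 of 8 rose and none fell, among them the scaffold Iqgap1, at 0.37 ± 0.12 (adjusted p = 0.0242, edgeR). Without control F2 none of the 8 passed, with Iqgap1 at 0.35 (adjusted p = 0.0636), and without control F1, knockout M2 or knockout M3 the count was 1. Strn3, a striatin, at -0.04 ± 0.09 (adjusted p = 0.74), and Pcp4l1, at -0.29 ± 0.12 (adjusted p = 0.0674), did not pass. With length and GC offsets 3 rose and Pcp4l1 fell (-0.52), and Pcp4l1 also passed without knockout F3 (-0.33). Iqgap1 is also expressed outside heart muscle, and the macrophage, fibroblast, endothelial and smooth muscle sums given above were higher in knockouts, but their part in this rise was not tested.

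Around calcineurin, 1 of 8 tested genes rose, 1 fell and 6 did not pass. Fkbp1a, which encodes the FK506 binding protein FKBP12, had 546 ± 129 normalized counts in knockouts and 298 ± 19.8 in controls, a log2 fold change of 0.85 ± 0.15 (adjusted p = 0.000398, edgeR). Akap5, an anchoring protein that holds calcineurin and protein kinase A, had 15.7 ± 3.32 in knockouts and 34.5 ± 9.67 in controls, 2.25-fold lower (adjusted p = 0.00116). Myoz2, calsarcin of the Z disc, had -0.34 ± 0.14 and did not pass (adjusted p = 0.0599), but passed without knockout F3 (-0.38) or knockout M3 (-0.40). The regulatory subunit Ppp3r1 was at -0.02 ± 0.09 and the third catalytic subunit Ppp3cc at 0.15 ± 0.14, both named after their values were seen.

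Downstream, 2 of 14 tested genes of the NFAT, MEF2 and class IIa histone deacetylase list rose, 4 fell and 8 did not pass. None of the calcineurin-regulated NFAT genes passed: Nfatc1 was at 0.02 ± 0.20, Nfatc2 at 0.37 ± 0.28, Nfatc3 at -0.02 ± 0.10 and Nfatc4 at 0.10 ± 0.14 on the log2 scale, all 4 named after their values were seen. Hdac9, a class IIa histone deacetylase, had 147 ± 21.3 normalized counts in knockouts and 254 ± 33.7 in controls, 1.76-fold lower (adjusted p = 0.000212, edgeR), and Hdac7 of the same class rose by 0.50 ± 0.15 (adjusted p = 0.0137). Mef2a and Mef2c fell by 0.59 and 0.53, but with length and GC offsets stood at -0.18 (adjusted p = 0.13) and -0.07 (adjusted p = 0.453). The other calls, named after their values were seen, were Hdac4 at -0.44 ± 0.17 (adjusted p = 0.0492), which did not pass in 17 of 22 alternatives, and Camta1, a calmodulin-binding transcription activator, at 0.41 ± 0.12. Nfat5, which calcineurin does not regulate, was at -0.37 ± 0.15, and Hdac5 at -0.19 ± 0.13, and neither passed. Without knockout M1 the list had 8 falls, with Nfat5 at -0.49 (adjusted p = 0.000876), Hdac5 at -0.28 (adjusted p = 0.0393), Mef2d and Camta2 added. With length and GC offsets it had 1, Hdac9, and Nfat5 was at 0.13.

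Of 9 tested calmodulin-dependent cyclases, phosphodiesterases, nitric oxide synthases and calcium pumps, 5 fell, 1 rose and 3 did not pass. Adcy1, an adenylyl cyclase stimulated by calmodulin, had 550 ± 185 normalized counts in knockouts and 1306 ± 87.7 in controls, a log2 fold change of -1.27 ± 0.18 (adjusted p = 8.13e-05, edgeR). Nos1, neuronal nitric oxide synthase, was low in both groups, 4.63 ± 3.80 in knockouts and 17.2 ± 8.65 in controls, and fell by 1.88 on the log2 scale (adjusted p = 0.00645). Pde1c, a calmodulin-stimulated phosphodiesterase, and Atp2b1, a plasma membrane calcium pump, fell by 0.70 and 0.42, but with length and GC offsets stood at -0.16 (adjusted p = 0.194) and -0.00 (adjusted p = 0.995). Nos3, the endothelial synthase, fell by 0.37 and Pde1a rose by 0.36, both named after their values were seen. The fall of Nos3 was lost without control M1 or F2 (adjusted p up to 0.0568), and the rise of Pde1a without control F1, knockout F2 or knockout M2 (adjusted p up to 0.0662). With the offsets 3 of the 9 fell. Atp2b4, at -0.32 ± 0.14, and Adcy3, at 0.07 ± 0.14, did not pass.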

How the data were processed

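Left atrial RNA from 10 mice was sequenced as 51 bp single-end reads after globin depletion, per the labels' protocols, which name both an mRNA kit and ribosome-depleted total RNA. The submitters' processing notes name TopHat2 2.0.11, featureCounts, DESeq2 and FastQC, and the build mm10. Which annotation and strand setting were used, and how multiply fitting reads were treated, is not given in the sources used here.

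The authors deposited raw counts per gene and library, and, per the file headers, a normalized signal in which each library's counts are divided by its own size factor. The deposited table also holds the authors' own log2 fold change and its error, the linear fold or ratio, the test score, and the p-value with its adjusted form. All per-sample columns matched a library by label.

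Tests were run on raw counts with edgeR 4.0.16 in R 4.3.3: filterByExpr by group, TMM scaling, the quasi-likelihood F-test without covariates, and Benjamini-Hochberg adjustment at 0.05 over 13191 genes. Sex effects came from a fit with a mean for each sex and group. Intervals use the fit's degrees of freedom. The Tbx5 test used log2 of the normalized count plus 1. The functions were tested on simulated data for 13191 genes with 200 changed: the genotype fit recovered 54.3% of changes of 1.5-fold, 82.8% at 2-fold and 100% at 4-fold, with 13 false among 170 calls, and the sex difference 0%, 21.9% and 71.2% with 5 false among 66. In the deposited data 42.6% of tested genes passed the genotype test, far more than were changed in the simulation, so these rates do not give the recovery there.

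Positions and exon lengths came from GENCODE M21 (GRCm38), in which no exon of a member overlaps another gene, and 11973 tested genes (90.8%) had a length and GC value. Promoters came from RefSeq (GRCm38.p6) by symbol: 5 of 9 members had printable windows. Named genes are all members, Tbx5 and, from each list, up to 4 past the threshold by smallest adjusted p and up to 2 others by highest mean; some genes that this rule names are not reported here. Members, lists and tests were chosen with earlier results of these data known.

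Within-group correlations of log2 values were 0.964 to 0.986, and between groups 0.888 to 0.949. Chi-square per degree of freedom between replicates was at least 4.11, so no library was a repeat. Labels name separate animals and no batch, litter or date. Alternatives were RLE or library size scaling, no filter or at least 50 counts in 4 libraries, DESeq2 1.42.0 and limma-voom 3.58.1. Others were sex or a replicate block, length and GC offsets (splines with 4 degrees of freedom per library) and 1 sex alone. Each library was also left out by itself, and in 1 further fit control F1 and knockout M3 were both left out. Added after seeing the data were counts of the pathway lists under each alternative, gene families with further members, the Tbx5 level under library size scaling and the sex difference without knockout M1.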

Additional observations from a re-analysis of the deposited data

Results flagged for a closer look

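Of 84 sets of values examined by Dixon's criterion for a sample far from the others of its group, 14 had one, where chance gives about 4.2, and 11 of these were knockout M1. Among the members, Calm2 was at 566 normalized counts in knockout M1 against 883 to 1043 in the other knockouts, Camk2a at 158 against 57.7 to 69.8, and Ppp3cb at 582 against 387 to 453. In the pathway lists, knockout M1 was also far from the other knockouts in Camk2n1 at 233, Fkbp1a at 801, Mef2a at 633, Hdac7 at 520, Nfat5 at 869, Cacna1c at 2546, Adcy1 at 915 and Atp2b4 at 772. Knockout M3 was far from the others in Mef2c at 723. Control M1 was far from the other controls in Eef2k at 221 and Adcy1 at 1437. Over all tested genes, knockout M1 lay 89.5% of the way from the control mean to the knockout mean, itself left out of the latter. The mean correlation of knockout M1 with the other knockouts was 0.966, against 0.972 to 0.978 for the others. Why it stood apart was not tested.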

How the results depend on the processing

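Each member was refitted under 22 alternatives, giving 198 values. Of these, 180 kept direction and side of the threshold, 9 newly passed, 3 no longer passed and 6 changed sign. Rcan1 and Camk2b kept both under all 22. With length and GC offsets Camk2d was at 0.02, Camk2g at -0.01, Ppp3ca at 0.14, Ppp3cb at 0.05, Strn3 at 0.14 and Nfat5 at 0.13. With library size scaling alone, which moved the median of all genes by 0.137, Ppp3ca was at 0.07, Strn3 at 0.09, Dapk1 at 0.06 and Camk2n1 at 0.03. From females alone Camk2g was at -0.11. From males alone, with 3 against 2 libraries, 1 member (Rcan1), 9 pathway genes and 2061 of all genes passed, and Eef2k was at -0.02, Camk2n1 at 0.25, Hdac5 at 0.04 and Atp2b4 at 0.02. Leaving out single libraries gave -0.09 to 0.01 for Strn3, -0.19 to 0.01 for Camk2n1, 4 to 6 members passing, 4709 to 6085 of all genes and 22 to 33 pathway genes. Calm2 passed in 8 alternatives, with adjusted p from 0.000484 to 0.571 over all 22. Without a filter the sex difference held for 114 genes, against 27 with it, and without knockout M1 members passing in males numbered 4, against 2. The share of Camk2b, knockout minus control, was -0.102 percentage points, 0.178 without length scaling and -0.268 to 0.101 with single libraries left out. That of Camk2g was 11.6 points and 7.66 without length scaling. That of Ppp3ca was 2.76, and -0.186 with Ppp3cc in the family. The cause was not tested. Replicate numbers did not pair the libraries, with correlations of same-numbered libraries from -0.126 to 0.172. A fit with the replicate block called 4 members and 5411 genes. At this depth Nos1 and Akap5, with few reads per library, have large counting errors.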

Other observations

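Among 9635 genes with a mean of at least 50 normalized counts, the 3 whose log2 levels moved most like each member over the 10 libraries, after group means were removed, were listed by Pearson's r. For Rcan1 they were Dusp27 (0.951), Hbegf (0.947) and Dnajb11 (0.939). For Camk2d they were Arhgap21 (0.984), Abi3bp (0.964) and Chrm2 (0.959). For Camk2a they were Carm1 (0.973), Airn (0.961) and Srrm1 (0.957), and for Calm2 they were Shfm1 (0.977), Blmh (0.975) and Tceal8 (0.965). For Calm3 the closest was Ptms (0.959), for Camk2b Fbxo10 (0.975), for Camk2g Ppp2r1a (0.941), for Ppp3ca Fam76b (0.912) and for Ppp3cb Dgkz (0.980). These are descriptions over 10 libraries that share depth and scaling, picked as the highest of many, and for Camk2a, Calm2 and Ppp3cb knockout M1 is far from the other knockouts.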
